A study of Mus musculus with 8 samples.

Results

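A set of 9 genes for G protein-coupled receptors that tune insulin secretion was followed in RNA sequencing libraries from mouse pancreatic islets. The genes were taken by name from the 48709 genes of the deposited tables, and all 9 were found: Glp1r, Gipr, Gcgr, Gpr119, Ffar1, Chrm3, Adra2a, Sstr3 and Galr1. Islets came from C57BL/6 mice aged 1 year and of 2 genotypes, β-Tead1-KO and Flox/Flox, with 2 libraries of each genotype and 2 sequencing lanes per library. The protein made by Tead1 binds DNA for the coactivators YAP and TAZ, and the labels place its loss in β-cells. Flox/Flox islets were the controls, and the driver of the deletion is not given in the sources used here. Per the series' design text, 3 samples were pooled per library, whereas descriptions of the samples list 1 or 2 numbers for each, so the number of animals behind a library is unclear. The p-values therefore measure the spread between these libraries, helped by a variance estimate shared across genes. For very abundant genes such as Ins1 and Gcg, that shared estimate was wider than the spread of their own libraries.

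Insulin secretion is started by glucose and scaled up or down by receptors on the β-cell surface. Receptors coupled to the G protein Gs raise cyclic AMP, receptors coupled to Gq release calcium from internal stores, and both strengthen glucose-induced secretion. Receptors coupled to Gi lower cyclic AMP and hold secretion back, which is how adrenaline, somatostatin and galanin act. GLP-1 and GIP, the gut hormones that act through Glp1r and Gipr, are called incretins because they raise insulin release after a meal.

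The promoter windows of 3 receptors are shown because Ffar1 was the receptor that passed the test between genotypes, and Glp1r and Adra2a had the highest level per exon length in Flox and in β-Tead1-KO islets. Each window holds 250 bases before and 50 bases after the RefSeq gene start (GRCm38.p6), read 5′ to 3′ along the gene's strand. Capitals mark matches on either strand to the TEAD core GGAATG, the PDX1 A-box CTAATG or the NEUROD1-type E-box CAGATG.
Ffar1, chr7:30861421-30861720, minus strand: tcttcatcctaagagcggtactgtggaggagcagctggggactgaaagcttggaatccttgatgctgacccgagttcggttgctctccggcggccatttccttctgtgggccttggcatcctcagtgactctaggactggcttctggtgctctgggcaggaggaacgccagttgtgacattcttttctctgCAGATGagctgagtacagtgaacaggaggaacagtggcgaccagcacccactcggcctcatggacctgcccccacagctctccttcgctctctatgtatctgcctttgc
Glp1r, chr17:30901617-30901916, plus strand: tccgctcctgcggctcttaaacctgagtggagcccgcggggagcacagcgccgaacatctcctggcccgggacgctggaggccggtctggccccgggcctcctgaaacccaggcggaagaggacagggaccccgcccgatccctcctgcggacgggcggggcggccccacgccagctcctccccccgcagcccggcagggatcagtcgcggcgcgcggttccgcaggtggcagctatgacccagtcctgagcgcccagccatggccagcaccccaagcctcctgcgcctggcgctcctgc
Adra2a, chr19:54045009-54045308, plus strand: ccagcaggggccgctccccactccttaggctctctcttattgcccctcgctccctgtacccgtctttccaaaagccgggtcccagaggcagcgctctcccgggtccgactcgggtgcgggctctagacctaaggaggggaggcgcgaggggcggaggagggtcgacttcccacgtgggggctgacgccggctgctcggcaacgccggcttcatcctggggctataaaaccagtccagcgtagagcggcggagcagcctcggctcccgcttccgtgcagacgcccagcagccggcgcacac
Ffar1 carries 1 CAGATG match, which begins 59 bases before the RefSeq gene start, and the only other one in these receptors is in 1 window of Sstr3. The single counted exon of Ffar1 runs up to 30861564 on the minus strand. The Ffar1 match therefore lies inside that exon and not upstream of it. Neither Glp1r nor Adra2a holds any of the 3 motifs in its window. The counted exon of Adra2a begins at 54045182, before the RefSeq start used here. In GENCODE M21 the gene begins at 54044151 and its 4832 exon bases cover the whole model. The whole Adra2a window is thus exon in that model and not upstream sequence. Windows were found for 7 of the 9 receptors, and none of them holds the TEAD core, which is present in 14.6% of 32544 RefSeq windows of the same length. CAGATG is present in 17.1% and CTAATG in 7.33% of those windows. The Glp1r and Adra2a windows have a GC content of 73.7% and 68.7%, against 56.3% for Ffar1.

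Libraries labelled β-Tead1-KO (KO-labelled below) had 22352518 and 26387280 exon reads, against 21938244 and 14069569 in Flox libraries. The insulin genes took 17% and 15.2% of exon reads in KO-labelled libraries and 18.3% and 20.4% in Flox libraries. This share sums Ins1 and Ins2, which are given apart below. Tead1 itself was at 137 and 163 CPM (exon reads relative to the TMM-scaled library size) in KO-labelled libraries, against 101 and 124 CPM in Flox libraries, and the difference did not pass the test (log2 ratio of KO-labelled over Flox, log2FC, 0.41 ± 0.19, where ± is the SE here and for each log2FC below, edgeR adjusted p = 0.347). A gene total cannot show the loss of single exons, so every direction given here rests on the labels. The second library of each genotype stood apart in its intron-class reads, which made up 38.0% and 29.4% of gene reads in KO-labelled libraries 2 and 1 and 43.1% and 28.8% in Flox libraries 2 and 1. Between genotypes 504 of 15014 tested genes passed (edgeR's quasi-likelihood test, Benjamini-Hochberg adjusted p below 0.05). This count was 90 and 67 with KO-labelled library 1 or 2 left out, and 2360 and 963 with Flox library 1 or 2 left out.

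All 6 receptors coupled to Gs or Gq had a lower mean in KO-labelled libraries, with both libraries below both Flox libraries. Of these, the fatty acid receptor Ffar1 fell past the threshold, so that 1 of 9 receptors was called lower, against 1.60% of all tested genes called lower and 3.36% called in either direction (edgeR). No receptor was called higher by edgeR, against 1.76% of all tested genes, or by DESeq2, against 3.73%, and 0 of 9 were higher at an unadjusted p below 0.05 in edgeR. At an unadjusted p below 0.05, 6 of 9 were lower, against 8.70% of all tested genes lower and 16.8% in either direction. DESeq2 called 3 of 9 lower, Glp1r, Gipr and Ffar1, against 3.68% of all genes. On uniquely mapped exon reads edgeR called 2 of 9 lower, Glp1r and Ffar1, against 2.38% of genes, and on exon-junction reads 0 of the 7 tested, against 2.13% of genes. All exon reads of Glp1r and Ffar1 were uniquely mapped, so the fit on unique reads left their own counts unchanged. The groups did not overlap for 7 of the 9 receptors, which was also so for 48.0% of all tested genes. In 6 cases the KO-labelled libraries were the lower ones, against 24.2% of all genes, and in 1 the higher ones, against 23.9%. The median log2 fold change was -0.66 over the 9 receptors and -0.01 over all tested genes. In bulk islet RNA, fewer cells of a type and less RNA per cell cannot be told apart.

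**Figure D1:**
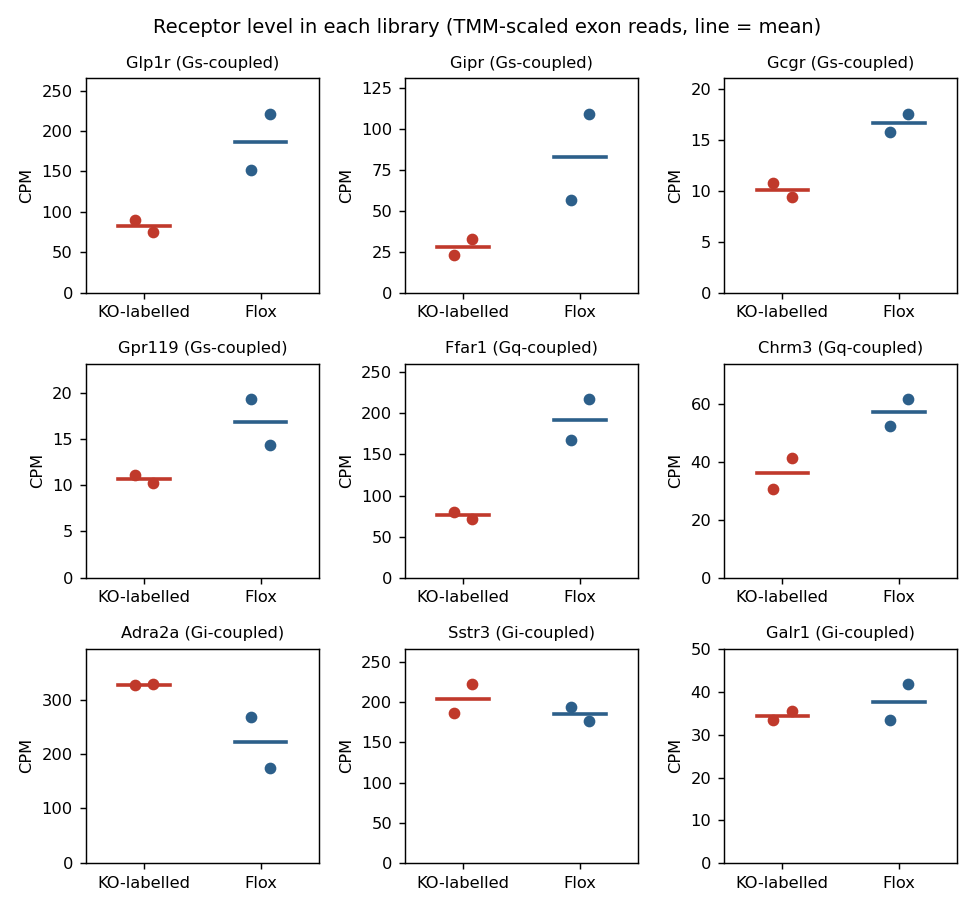
Level of each receptor in CPM (TMM-scaled exon reads, axis from 0) in the 2 KO-labelled and 2 Flox libraries. Points are libraries and lines are means, with the 4 Gs-coupled receptors first, then the Gq-coupled and the Gi-coupled ones. Both KO-labelled points lie below both Flox points for Glp1r, Gipr, Gcgr, Gpr119, Ffar1 and Chrm3, and above them for Adra2a.

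Glp1r, the GLP-1 receptor (ENSMUSG00000024027, mm10 chromosome 17, 30901867 to 30936510, plus strand), was at 90.2 and 74.5 CPM in KO-labelled libraries, against 151 and 221 CPM in Flox libraries. The KO-labelled mean of 82.4 ± 11.1 CPM stood beside a Flox mean of 186 ± 49.3 CPM (SD, n = 2 each), which gave a log2FC of -1.18 ± 0.23 (SE). This did not pass in edgeR (adjusted p = 0.0617). It passed in DESeq2 (adjusted p = 0.000187) and on uniquely mapped exon reads in edgeR (adjusted p = 0.0477), where Glp1r's own counts were unchanged (100% unique). It also passed with Flox library 1 or 2 left out (log2FC -1.41 and -0.88, edgeR adjusted p = 0.000178 and 0.0137), but not with KO-labelled library 1 or 2 left out (log2FC -1.29 and -1.03). The gene model of the files counts 1480 exon bases and ends at 30936510, while GENCODE M21 has 5811 exon bases and ends at 30940791, so reads of the last exon's extension were not counted. Reads crossing exon junctions made up 96.8% of Glp1r exon reads in each KO-labelled library and 97.7% and 97.4% in Flox libraries. Counted on junctions only, the log2FC was -1.20 ± 0.26 (SE, edgeR adjusted p = 0.0513).

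Gipr, the receptor for the incretin GIP (ENSMUSG00000030406, chromosome 7, 19156061 to 19166127, minus strand), was at 23.3 and 33.1 CPM in KO-labelled libraries and at 56.9 and 109 CPM in Flox libraries. The Flox libraries differed widely from each other, and both lay above both KO-labelled libraries. Its log2FC was -1.56 ± 0.35 (SE, edgeR adjusted p = 0.0875, DESeq2 adjusted p = 0.000346). It was -1.95 without Flox library 1 and -1.01 without Flox library 2, and passed in both fits (edgeR adjusted p = 3.16e-05 and 0.0154). Without KO-labelled library 1 or 2 it was -1.30 and -1.82 and did not pass (edgeR adjusted p = 0.419 and 0.274). On junction reads it was -1.61 (edgeR adjusted p = 0.0747).

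Gcgr, the glucagon receptor, through which α-cell glucagon can also act on β-cells (ENSMUSG00000025127, chromosome 11, 120530699 to 120538986, plus strand), had fewer transcripts per exon length (TPM, given below) than either incretin receptor in every library. It was at 10.7 and 9.38 CPM in KO-labelled libraries and at 15.7 and 17.5 CPM in Flox libraries. The libraries of each genotype lay close together, with a KO-labelled mean of 10.1 ± 0.939 CPM and a Flox mean of 16.6 ± 1.24 CPM (SD, n = 2 each). Its log2FC was -0.73 ± 0.20 (SE) and did not pass (edgeR adjusted p = 0.131, DESeq2 adjusted p = 0.113). An antisense gene, Gm11789, overlaps Gcgr and had 20 and 18 exon reads in KO-labelled libraries and 35 and 17 in Flox libraries. The use of strand is not stated, so reads of the overlap cannot be told apart.

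Gpr119, a Gs-coupled receptor for lipid amides (ENSMUSG00000051209, chromosome X, 48667979 to 48674478, minus strand), was at 11.1 and 10.2 CPM in KO-labelled libraries, against 19.3 and 14.3 CPM in Flox libraries. Its log2FC was -0.66 ± 0.22 (SE, edgeR adjusted p = 0.216, DESeq2 adjusted p = 0.234). Flox library 2 held 203 exon reads of Gpr119, the fewest of any receptor in any library.

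Ffar1, also known as GPR40, the Gq-coupled receptor through which long-chain fatty acids strengthen insulin secretion, fell in KO-labelled islets. The gene (ENSMUSG00000044453, chromosome 7, 30857390 to 30861564, minus strand), whose promoter window is printed above, has a single exon. It was at 80.4 and 71.8 CPM in KO-labelled libraries, against 167 and 217 CPM in Flox libraries. The higher KO-labelled library was below the lower Flox library, and the level was 39.6% of that in Flox. Its log2FC was -1.34 ± 0.19 (SE, edgeR adjusted p = 0.0273, lower in 2 of 2 KO-labelled libraries). It also passed in DESeq2 (adjusted p = 1.5e-07) and limma-voom (adjusted p = 0.0322). Without KO-labelled library 1 or 2 the fold change was -1.39 and -1.24 and missed the threshold (edgeR adjusted p = 0.204 and 0.303), in fits that assume the lone KO-labelled library to vary as the Flox pair does.

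Chrm3, the muscarinic receptor through which acetylcholine from nerve endings acts on β-cells by Gq (ENSMUSG00000046159, chromosome 13, 9875486 to 10360844, minus strand), is also expressed by acinar cells. It was at 30.7 and 41.5 CPM in KO-labelled libraries, against 52.6 and 61.6 CPM in Flox libraries. Its log2FC was -0.66 ± 0.21 (SE) and did not pass (edgeR adjusted p = 0.180, DESeq2 adjusted p = 0.102), and it was -1.09 on junction reads (edgeR adjusted p = 0.163). It passed without Flox library 1 (log2FC -0.76, edgeR adjusted p = 0.0321). An antisense gene, Gm26861, overlaps Chrm3 and had 1 exon read in each KO-labelled library and 2 and 10 in Flox libraries. As for Gcgr, reads of the overlap cannot be told apart. Uniquely mapped reads made up 97.7% and 97.6% of Chrm3 exon reads in KO-labelled libraries and 98.8% and 93.0% in Flox libraries. The summed level of 17 acinar markers was 1230 and 9525 CPM in KO-labelled libraries and 2368 and 8494 CPM in Flox libraries. Both Chrm3 and the acinar sum were higher in library 2 than in library 1 of each genotype, and the part of acinar RNA in the Chrm3 values was not tested.

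Among the Gi-coupled receptors, Adra2a, the α2A-adrenergic receptor through which adrenaline and noradrenaline block insulin release (ENSMUSG00000033717, chromosome 19, 54045182 to 54048982, plus strand), had non-overlapping groups with the higher level in KO-labelled islets. It was at 326 and 328 CPM in KO-labelled libraries, which lay close together, and at 269 and 175 CPM in Flox libraries. Its log2FC was 0.56 ± 0.24 (SE) and did not pass (edgeR adjusted p = 0.330, DESeq2 adjusted p = 0.201). It was 0.91 without Flox library 1, which passed (edgeR adjusted p = 0.00834), and 0.28 without Flox library 2.

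Sstr3, a somatostatin receptor found on the primary cilium of β-cells (ENSMUSG00000044933, chromosome 15, 78537015 to 78544345, minus strand), was at 187 and 222 CPM in KO-labelled libraries and at 194 and 177 CPM in Flox libraries. The groups overlapped, with a log2FC of 0.14 ± 0.17 (SE, edgeR adjusted p = 0.747). The direction turned on junction reads, where the log2FC was -0.24 ± 0.22 (SE). Galr1, a receptor for the neuropeptide galanin (ENSMUSG00000024553, chromosome 18, 82392496 to 82406777, minus strand), was at 33.5 and 35.5 CPM in KO-labelled libraries and at 33.6 and 41.8 CPM in Flox libraries. Its groups overlapped too, with a log2FC of -0.13 ± 0.18 (SE, edgeR adjusted p = 0.782), and it was 0.04 without Flox library 2.

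**Figure D2:**
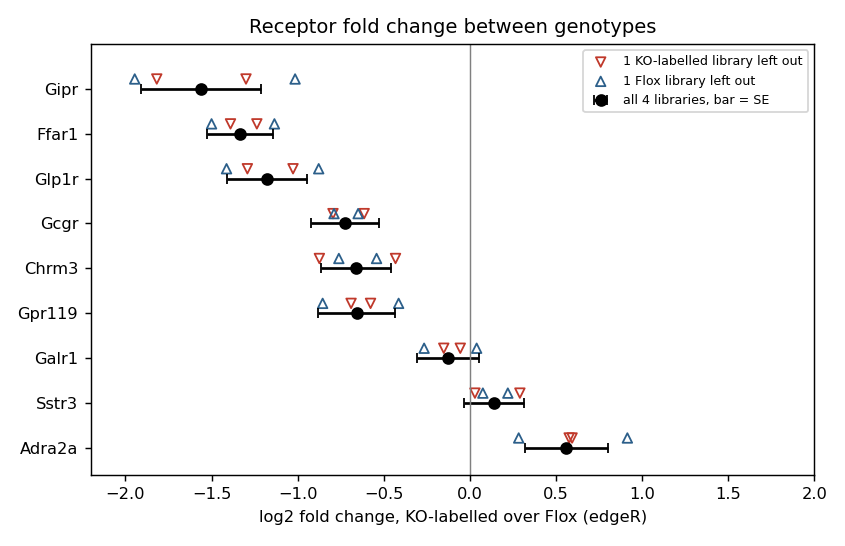
Log2 fold change of each receptor, KO-labelled over Flox, with Gipr at the top and Adra2a at the bottom. Black points with standard errors use all 4 libraries, and open triangles leave out 1 library, red for a KO-labelled and blue for a Flox one. The 6 stimulatory receptors stay below 0 in every such fit, and Galr1 crosses 0 without Flox library 2.

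Set side by side per exon length, the receptors stood in a different order in the 2 genotypes. Levels here are the authors' TPM, averaged over the 2 lanes of a library. Adra2a led in both KO-labelled libraries, at 194.5 and 209 TPM, and was at 151 and 105 TPM in Flox libraries. Glp1r led in both Flox libraries, at 218 and 341 TPM, and was at 138 and 122 TPM in KO-labelled libraries. In KO-labelled islets the mean levels of Glp1r (129.9 ± 11.6 TPM) and Sstr3 (122 ± 20.5 TPM) differed by less than their SD (n = 2 each). In Flox islets Adra2a (128 ± 32.2 TPM), Sstr3 (104 ± 1.70 TPM) and Ffar1 (102 ± 23.6 TPM) could not be ranked beyond their spread. Ffar1 was at 43.6 and 41.6 TPM in KO-labelled libraries and stood clear of the receptors above and below it there. Galr1, Gipr and Chrm3 were at 26.4 and 29.9, 15.1 and 23.0, and 15.5 and 22.2 TPM in KO-labelled libraries, and Gpr119 and Gcgr came last at 8.65 to 11.1 TPM. In Flox libraries Gipr was above Galr1 and Chrm3, at 34.8 and 71.7 TPM, and Gpr119 and Gcgr were at 12.8 to 18.1 TPM.

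Summed by coupling, the 6 stimulatory receptors reached 233 and 228 TPM in KO-labelled libraries and 394 and 592 TPM in Flox libraries. The 3 Gi-coupled receptors reached 328.5 and 375 TPM in KO-labelled libraries and 281 and 241 TPM in Flox libraries. The stimulatory receptors thus made up 41.5% and 37.8% of the TPM of all 9 in KO-labelled libraries, and 58.4% and 71.1% in Flox libraries. Glp1r and Ffar1 carry most of the first sum and Adra2a and Sstr3 most of the second, and these sums follow from the receptors already described and were not tested.

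**Figure D3:**
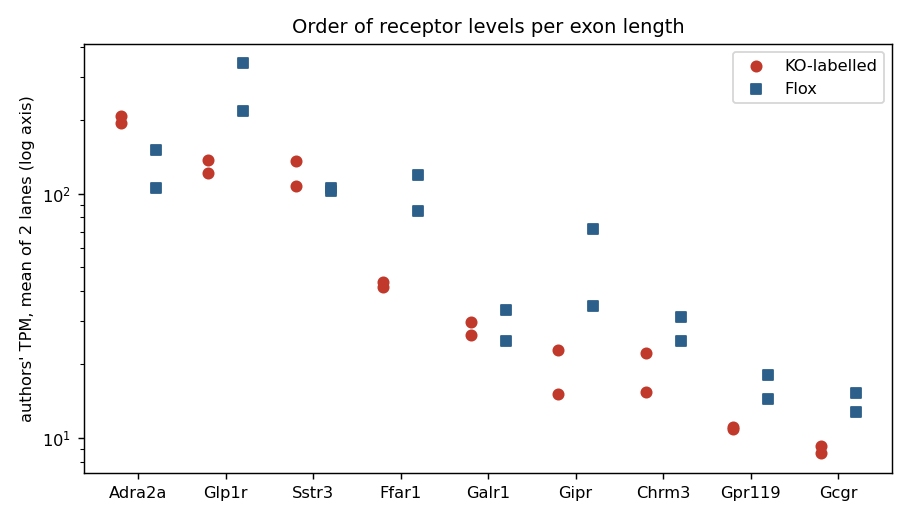
The authors' TPM of each receptor on a log axis, 1 point per library, with KO-labelled libraries as red circles left of Flox libraries as blue squares. Adra2a is the highest in KO-labelled libraries (194.5 and 209 TPM) and Glp1r in Flox libraries (218 and 341 TPM).

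Intron-class reads, the gene reads that the files do not count as exon reads, gave a second view of the same libraries. For Ffar1 and Adra2a, whose single exon covers the whole gene model, 5.63% to 6.79% and 0.952% to 2.25% of gene reads still fell in this class, so it does not hold introns alone. On these reads 0 of 9 receptors passed in edgeR, against 0.782% of 14443 tested genes, and 3 were lower at an unadjusted p below 0.05, Glp1r, Gipr and Ffar1, against 5.08% of those genes. Gipr was at 21.6 and 23.0 CPM of intron-class reads in KO-labelled libraries and at 60.5 and 53.7 CPM in Flox libraries, a log2FC of -1.35 ± 0.39 (SE, edgeR adjusted p = 0.216). Glp1r was at 102 and 68.9 CPM in KO-labelled libraries and at 143 and 320.0 CPM in Flox libraries (log2FC -1.44 ± 0.52, edgeR adjusted p = 0.401), and -0.78 without Flox library 2. Ffar1 was at 14.4 and 6.495 CPM of these reads in KO-labelled libraries and at 38.4 and 13.9 CPM in Flox libraries, so its groups overlapped. Its log2FC was -1.325 ± 0.562 (SE, edgeR adjusted p = 0.521), and -0.39 and -1.91 without Flox library 1 or 2. Galr1 went the other way, at 59.2 and 50.8 CPM in KO-labelled libraries and 40.2 and 27.9 CPM in Flox libraries (log2FC 0.69 ± 0.40, edgeR adjusted p = 0.680).

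The share of intron-class reads varied by receptor and by library. For Galr1 it was 37.1% (95% exact binomial interval 34.4 to 39.9) and 51.6% (49.3 to 53.8) in KO-labelled libraries 1 and 2, against 24.8% (22.1 to 27.6) and 43.1% (40.1 to 46.2) in Flox libraries 1 and 2. For Glp1r it was 27.3% and 40.8% in KO-labelled libraries and 20.6% and 62.2% in Flox libraries, so Flox library 2 was the highest and Flox library 1 the lowest. Chrm3, whose model spans 485359 bases, had 70.1% and 89.6% in KO-labelled libraries and 59.3% and 93.9% in Flox libraries. Without molecular identifiers, such intervals hold counting error alone.

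**Figure D4:**
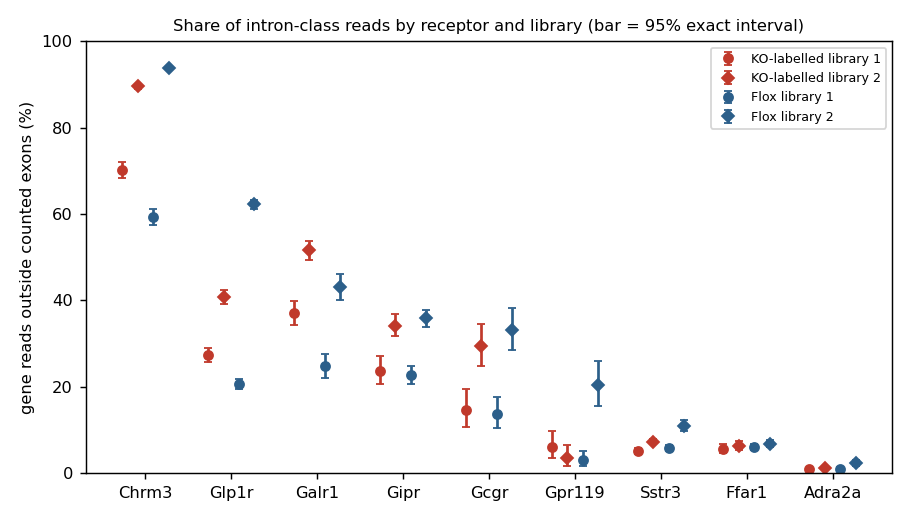
Share of gene reads outside the counted exons for each receptor, in percent, with 95% exact binomial intervals. Red is KO-labelled and blue is Flox, circles are library 1 and diamonds library 2. Library 2 lies above library 1 in both genotypes for 8 of the 9 receptors, all but Gpr119, and Glp1r in Flox library 2 reaches 62.2%.

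Other G protein-coupled receptors were followed through a list of 149, of which 68 were tested and 8 passed, 4 higher and 4 lower (edgeR), or 11.8% against 3.36% of all tested genes. The median log2 fold change of the list was -0.30. Ffar2, a receptor for short-chain fatty acids, rose to 54.4 and 58.5 CPM in KO-labelled libraries, against 23.0 and 23.4 CPM in Flox libraries (log2FC 1.28 ± 0.16, edgeR adjusted p = 0.0169). Ffar3, the other short-chain fatty acid receptor, was at 3.68 and 3.27 CPM in KO-labelled libraries and at 9.10 and 20.7 CPM in Flox libraries and did not pass in edgeR (log2FC -2.09 ± 0.42, adjusted p = 0.0633), while DESeq2 called it (adjusted p = 0.000228). Ffar4, which like Ffar1 binds long-chain fatty acids, was at 5.51 and 4.17 CPM in KO-labelled libraries and at 4.60 and 3.46 CPM in Flox libraries, with overlapping groups (log2FC 0.26 ± 0.30, edgeR adjusted p = 0.733). Oxtr, the oxytocin receptor, and P2ry1, an ADP receptor, rose as well, with log2FCs of 1.15 and 0.85 (edgeR adjusted p = 0.0271 and 0.0452), but neither passed on junction reads (adjusted p = 0.261 and 0.116). Gprc5b, an orphan receptor, rose by 2.37 ± 0.30 on the log2 scale (SE).

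Among the receptors that fell, Vipr1, which binds the neuropeptides VIP and PACAP and couples to Gs, was at 29.4 and 26.6 CPM in KO-labelled libraries, against 72.2 and 70.6 CPM in Flox libraries (log2FC -1.35 ± 0.16, edgeR adjusted p = 0.0153). The cannabinoid receptor Cnr1 was at 0.986 and 0.863 CPM in KO-labelled libraries and at 11.6 and 16.1 CPM in Flox libraries (log2FC -3.90 ± 0.30). Avpr1b, a vasopressin receptor, had a log2FC of -1.77 ± 0.30 (SE). Crhr1, the receptor for corticotropin-releasing hormone, had 1 exon read over both KO-labelled libraries and 144 over both Flox libraries, which scales to a ratio of 0.00507 (exact 95% counting interval 0.000127 to 0.0287). That interval leaves out the spread between the Flox libraries, at 1.95 and 7.19 CPM. Crhr1, among the 4 receptors of the list called lower, passed the filter through its Flox reads alone. With limma-voom P2ry1, Avpr1b and Crhr1 missed the threshold (adjusted p = 0.0550, 0.0559 and 0.0990). Casr and Gpr158, 2 of the 5 receptors of the list with the highest TPM, had log2FCs of -0.27 and -0.26 and did not pass (edgeR adjusted p = 0.492 and 0.536).

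**Figure D5:**
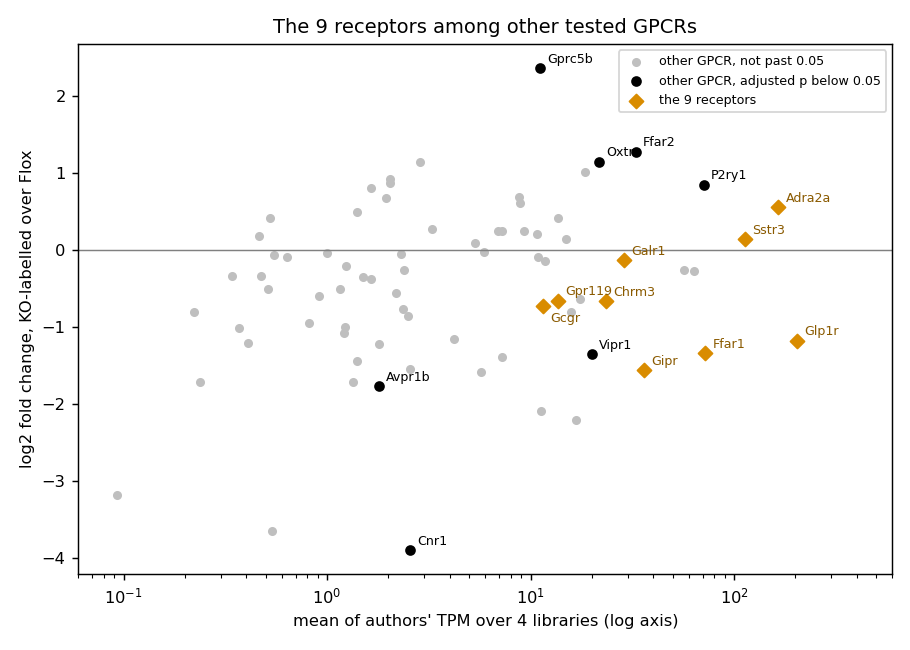
Log2 fold change, KO-labelled over Flox, against the mean of the authors' TPM over 4 libraries (log axis). Grey and black points are other tested G protein-coupled receptors, black where the adjusted p was below 0.05, and orange diamonds are the 9 receptors. Crhr1, with 1 read in KO-labelled libraries, is left out of the plot. Glp1r, Adra2a and Sstr3 lie furthest to the right, and Ffar2, Oxtr and P2ry1 lie above 0 where Ffar1, Gipr and Glp1r lie below it.

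Genes that carry and end receptor signals were taken from a list of 63 G proteins and receptor regulators, of which 56 were tested. In edgeR 5 passed, 2 higher and 3 lower, or 8.93% against 3.36% of all tested genes. The median log2 fold change of the list was -0.03. Arrb1, β-arrestin 1, which binds activated receptors and takes part in GLP-1 receptor signalling, was at 90.5 and 96.8 CPM in KO-labelled libraries and at 6.78 and 11.8 CPM in Flox libraries. Its log2FC was 3.34 ± 0.30 (SE, edgeR adjusted p = 0.00700), and it also passed with each of the 4 libraries left out. Grk5, a kinase that marks active receptors for arrestin, fell to 9.95 and 12.7 CPM in KO-labelled libraries, against 33.4 and 49.6 CPM in Flox libraries (log2FC -1.87 ± 0.26, edgeR adjusted p = 0.0242). Rgs8, which speeds up the switching off of Gi-type proteins, rose by 3.65 ± 0.45 on the log2 scale (SE). Gng4, a G protein γ subunit, and Itpr2, a calcium release channel opened on the Gq route, had log2FCs of -1.16 and -1.48 (edgeR adjusted p = 0.0303 and 0.0451). With limma-voom Rgs8 and Itpr2 missed the threshold (adjusted p = 0.0594 and 0.0550).

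Of 21 genes for ligands of these and related receptors and for the enzymes that make or degrade them, 14 were tested. In edgeR 3 passed, all lower, or 21.4%, against 1.60% of all tested genes called lower and 3.36% called in either direction. Sst, the δ-cell hormone that acts on Sstr3, was at 575 and 428 CPM in KO-labelled libraries, against 1688 and 1988 CPM in Flox libraries (log2FC -1.87 ± 0.28, edgeR adjusted p = 0.0293). Dpp4, the protease that inactivates GLP-1 and GIP, was at 25.4 and 13 CPM in KO-labelled libraries and at 102 and 83.9 CPM in Flox libraries (log2FC -2.28 ± 0.34). Pcsk1, the convertase that can release GLP-1 from proglucagon, had a log2FC of -1.07 (edgeR adjusted p = 0.0418). Gcg, the precursor of glucagon and GLP-1, was at 8052 and 6423 CPM in KO-labelled libraries and at 15430 and 12330 CPM in Flox libraries and did not pass (log2FC -0.94 ± 0.58, edgeR adjusted p = 0.50), while DESeq2 called it (adjusted p = 0.000538). With any 1 library left out the log2FC of Gcg stayed between -1.09 and -0.76, so its SE was wider than the spread of its libraries. Gip had no read in either KO-labelled library and 0 and 4 in Flox libraries, and Gal had 1 and 7 reads in KO-labelled libraries and 5 and 11 in Flox libraries, too few to compare. The 16 genes called in these 3 lists kept their direction with any 1 library left out. They were picked as called in these same libraries, so this gives no separate support. As over all tested genes, fewer of them passed without a KO-labelled library than without a Flox library.

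By their profile over the 4 libraries, the protein-coding genes nearest to Ffar1 were Tmem8, Ccl28 and Upp1, out of 10602 compared. The distance between centred log2 CPM profiles was 0.0733 for Tmem8, 0.10 for Ccl28 and 0.102 for Upp1. Tmem8 was at 24.8 and 22.7 CPM in KO-labelled libraries and at 51.5 and 64.0 CPM in Flox libraries, and the chemokine gene Ccl28 at 8.96 and 7.92 CPM in KO-labelled libraries and 17.8 and 25.5 CPM in Flox libraries.

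Levels of cell type markers are given beside those of the receptors. Iapp, Pcsk1, Sst, Gcg, Ppy and Pyy were also in the list of ligand genes above, so the counts share these genes. Of 18 β-cell markers, among them Glp1r, 17 had a lower mean in KO-labelled libraries, against 51.2% of all tested genes. Their median log2 fold change was -0.53. Of the 18, edgeR called 2 lower, against 1.60% of all tested genes, and DESeq2 called 8 lower, against 3.68%. The summed level of the β-cell markers, mostly insulin, was 215400 and 188000 CPM in KO-labelled libraries and 223300 and 227200 CPM in Flox libraries, and none was at 0. In this sum Ins1 was at 29610 and 29110 CPM in KO-labelled libraries, against 57380 and 63360 CPM in Flox libraries. Ins1 did not pass in edgeR (log2FC -1.04 ± 1.16, adjusted p = 0.721), while DESeq2 called it (adjusted p = 1.01e-07). Ins2 was at 140700 and 121900 CPM in KO-labelled libraries and 129400 and 138700 CPM in Flox libraries. Iapp had the higher mean in KO-labelled libraries (35540 against 22950 CPM). All 5 δ-cell markers had a lower mean, and edgeR called 2 and DESeq2 3 of them lower. Their sums, mostly Sst, were 625 and 467 CPM in KO-labelled libraries and 1819 and 2081 CPM in Flox libraries. Of 9 tested α-cell markers 8 had a lower mean, and edgeR called 1 and DESeq2 4 lower. The α-cell sums, mostly Gcg, were 10190 and 8308 CPM in KO-labelled libraries and 17760 and 13930 CPM in Flox libraries. The 3 polypeptide cell markers summed to 1077 and 572 CPM in KO-labelled libraries and 2438 and 2617 CPM in Flox libraries, and neither of the tested ones, Pyy and Ppy, passed in edgeR (log2FC -1.89 and -1.43, adjusted p = 0.0552 and 0.101), while DESeq2 called both. All 9 endothelial markers had a higher mean and none passed in edgeR (2 at an unadjusted p below 0.05, 1 called by DESeq2), with sums of 648 and 652 CPM in KO-labelled libraries and 585 and 572 CPM in Flox libraries. The sums of 11 mesenchymal markers (156 and 125 CPM in KO-labelled libraries, 83.8 and 83.1 CPM in Flox libraries) and of 6 erythroid markers (317 and 236 CPM in KO-labelled libraries, 121 and 52.5 CPM in Flox libraries) were larger in KO-labelled islets, and 2 mesenchymal genes and 1 erythroid gene passed (edgeR, higher). DESeq2 called 5 mesenchymal genes higher and 1 lower, and 3 erythroid genes higher, against 3.73% of all tested genes called higher. The part of these cell types in the receptor values was not tested. The summed level of 9 neural and Schwann cell markers was 88.6 and 87.5 CPM in KO-labelled libraries and 101 and 99.4 CPM in Flox libraries, and the Schwann cell factor Sox10 was at or below 0.282 CPM in every library.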

How the data were processed

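The 8 samples are 4 islet libraries (2 β-Tead1-KO, 2 Flox), each run on 2 lanes, and the library was the replicate. Per the labels' protocols, islets were isolated with collagenase and a density gradient, picked by hand, and an Illumina TruSeq kit was used for sequencing libraries. The deposited tables, 1 per lane, hold whole-number read counts per gene (unique and total exon, exon-exon junction and intron reads), per the file headers. A further column is the TPM of each gene as computed by the authors. Per the submitters' processing notes, reads were placed on mm10. The sources used here name no aligner, counter, annotation release or strand setting.

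Total exon reads of the 2 lanes were summed. The lanes of a library differed by 1.07 to 1.20 in chi-square per degree of freedom (genes averaging 10 or more reads), where 1 is sampling noise. Genes were filtered with filterByExpr (minimum count 10, minimum total 15), scaled by TMM and compared with edgeR 4.0.16 in R 4.3.3 (quasi-likelihood test, 2-sided, Benjamini-Hochberg over 15014 genes, threshold 0.05), tested on simulated data first. DESeq2 1.42.0, limma-voom (limma 3.58.1), other scalings, filters and read classes, single lanes, a replicate block and each library left out were the alternatives. A standard error is the fold change divided by the root of F. Intron-class and junction reads were filtered, scaled and tested on their own.

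Receptors and gene lists were chosen with earlier results of these data known. Besides the 9 receptors, the text names each gene of 3 lists past the threshold, the 5 other receptors with the highest TPM, Gcg, Gip, Sst and Gal, and the 3 genes nearest to each receptor past the threshold (prior count 0.5, mean CPM of at least 5). Of the 149 other receptors 147 were matched. Ffar3, Ffar4, Gm11789, Gm26861 and the overlap of gene models were added after the values were seen. Promoter windows are from RefSeq.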

Additional observations from a re-analysis of the deposited data

How the results depend on the processing

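The direction of Glp1r, Gipr, Gcgr, Gpr119, Ffar1, Chrm3 and Adra2a held under every alternative on exon, unique or junction reads that gave a value. Of 151 alternative values of the 9 receptors, 134 kept their direction and side of the threshold. Galr1 lay between -0.27 and 0.039 when single libraries were omitted, above 0 without Flox library 2, and was 0.002 on junction reads, where Sstr3 was at -0.24; the cause was not tested. Against 1 receptor called lower, DESeq2 called 3, unique exon reads 2 and junction reads 0, where the single-exon Ffar1 and Adra2a have no junction reads and were not tested. With a library left out it was 0 to 4 (0 without KO-labelled library 1 or 2, where 0.178% and 0.141% of all genes were called lower, and 4 and 3 without Flox library 1 or 2, where 7.75% and 3.03% were), and the number called higher 0 to 1, which was Adra2a without Flox library 1 (7.35% of all genes called higher). Against 504 genes called in all, DESeq2 called 1112, and the range with a library left out was 67 to 2360. On intron-class reads, against 0 receptors called, 0 to 2 passed with a library left out, 2 of them without Flox library 1 or 2, where 6.90% and 2.49% of genes were called lower. In these intron-class fits the log2FC of Adra2a was -0.52 without Flox library 2 and -0.44 without KO-labelled library 1. That of Chrm3 was 0.285 without Flox library 2. Both thus turned there, while Glp1r, Gipr, Gcgr, Gpr119 and Ffar1 stayed below 0. Fits with a library left out take the spread of the lone library's arm from the other arm. Leaving hormone genes out before scaling, an alternative chosen after seeing the data, changed no receptor's call.

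The libraries of the 2 genotypes share the numbers 1 and 2, and over 15014 genes their within-genotype differences had a correlation of 0.38, but no label ties a number to a litter, batch or day. With the number as a replicate block, edgeR called 1150 genes, 4 receptors lower, against 3.96% of all genes (Glp1r, Gipr, Ffar1 and Chrm3, adjusted p = 0.0234, 0.00329, 0.00679 and 0.0396). With this block on intron-class reads, Glp1r and Gipr passed (log2FC -1.355 and -1.351, edgeR adjusted p = 0.00655 and 0.0235). The share of all genes passing in that intron-class fit was not counted. Depth was 203 to 8740 exon reads per receptor and library, and 2 libraries per genotype limit the precision.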
